A study of Mus musculus with 80 samples.

Results

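Antioxidant and xenobiotic enzyme genes were described in the lungs of 40 mice. Members were the genes whose symbol named a glutathione transferase, peroxiredoxin, glutathione peroxidase, catalase, superoxide dismutase, thioredoxin system protein, haem oxygenase, glutathione synthesis or recycling enzyme, quinone reductase, cytochrome P450, epoxide hydrolase, aldehyde dehydrogenase, aldo-keto reductase or sulfotransferase, taken from spots with exactly 1 symbol in the platform annotation. This gave 54 genes of 7151 so named, on 64 of 16896 spots, with the spot of highest mean over the 40 mice standing for a gene. The rule itself used no measured change, but it was chosen with earlier results of these data known. All mice were C57BL/6, fed without restriction, with no stated mutation or treatment, and 20 were male. There were 10 mice in each of 4 age groups, 5 of each sex. The youngest group was 17 to 44 days old, the next 169 to 194 days, the third 476 to 499 days, and the oldest 704 to 743 days. The study set out to compare mice by age and sex. The lung RNA of each mouse was hybridised to 2 cDNA arrays, called table A and table B here, which together hold 16896 spots. The sample was the whole lung, so fewer cells of a type and less RNA per cell cannot be told apart in any level below.

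Each level is a z score: the spot's distance from the mean of its array, in SDs of that array's spots. A level or change is therefore relative to the other spots of the array, and no fold can be given. All 80 arrays had 0 missing values, and array medians ran from -0.11 to 0.02. Residuals of spots that share a column of the array were related, so results are also given with each array's spot position taken out. The title numbers of 13 mice were 46 or above, called later here, and those of the other 27 were lower, called earlier; no label says what the numbers mark. For 1 male of 714 days the description field carries the name of a male of 43 days. The correlation between these mice was 0.936 (table A) and 0.937 (table B), below the median pair at 0.946 and 0.952. Lung markers were read where a spot carried them: 4 of 10 alveolar type II markers, 3 of 6 club cell markers and 0 of 5 alveolar type I markers. Mean levels of these alveolar type II markers ran from -0.48 to 0.23 over the mice, and those of the club cell markers from 0.19 to 0.91.

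These enzymes protect cells from oxidants and reactive chemicals. Superoxide dismutases turn superoxide into hydrogen peroxide, which catalase, glutathione peroxidases and peroxiredoxins remove. The peroxidases and peroxiredoxins, but not catalase, do so with electrons from glutathione or thioredoxin. Cytochromes P450 and epoxide hydrolases add or expose reactive groups on foreign and endogenous compounds, and glutathione transferases, aldehyde dehydrogenases and aldo-keto reductases take the products further. Many of these genes are induced by the transcription factor NRF2, which binds the antioxidant response element (ARE) in their promoters once its inhibitor KEAP1 lets it go. Others are induced by the aryl hydrocarbon receptor through the xenobiotic response element (XRE). In the lung, club cells of the airway are known for their xenobiotic enzymes, and the gas exchange surface is exposed to oxygen throughout life.

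Promoters were taken from RefSeq on assembly GRCm38.p6, as the 300 bases around a start site, most of them upstream, and 43 of the 54 members matched, with 58 promoters. The ARE core TGACNNNGC was searched on both strands, as were the XRE core GCGTG and the TATA box TATAAA. The ARE core lay in a promoter of 10 members, or 23.3% of the 43, beside 14.0% of all 27025 genes in the table and 16.6% of the 5827 with a spot of 1 symbol. The XRE core lay in a promoter of 51.2% of members, beside 35.2% and 58.2%, and TATAAA in 18.6%, beside 15.7% and 8.99%. Members with the ARE core were Mgst1, Akr1cl, Prdx1, Sod1, Gstm5, Gstm7, Aldh1a2, Aldh9a1, Akr1c19 and Txnrd1. A match describes letters in the window and shows no binding. The promoters of 4 members on which the results below turn are shown, with the ARE core in capitals where it was found; both matches lie on the opposite strand, so the capitals read as its reverse complement. For Mgst1 the first of its 2 start sites is shown.
Prdx3, chr19:60874489-60874788, minus strand: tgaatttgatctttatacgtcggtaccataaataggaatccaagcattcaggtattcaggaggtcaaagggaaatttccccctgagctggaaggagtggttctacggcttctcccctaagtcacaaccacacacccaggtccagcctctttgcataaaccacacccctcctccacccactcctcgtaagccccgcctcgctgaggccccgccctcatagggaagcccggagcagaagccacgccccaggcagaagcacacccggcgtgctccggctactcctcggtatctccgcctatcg
Gstp1, chr19:4037863-4038162, minus strand: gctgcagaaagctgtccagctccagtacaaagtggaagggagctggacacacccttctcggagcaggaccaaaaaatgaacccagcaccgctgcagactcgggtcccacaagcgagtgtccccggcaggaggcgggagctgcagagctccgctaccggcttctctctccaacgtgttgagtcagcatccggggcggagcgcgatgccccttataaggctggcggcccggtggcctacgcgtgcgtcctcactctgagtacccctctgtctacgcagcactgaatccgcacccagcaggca
Mgst1, chr6:138140277-138140576, plus strand: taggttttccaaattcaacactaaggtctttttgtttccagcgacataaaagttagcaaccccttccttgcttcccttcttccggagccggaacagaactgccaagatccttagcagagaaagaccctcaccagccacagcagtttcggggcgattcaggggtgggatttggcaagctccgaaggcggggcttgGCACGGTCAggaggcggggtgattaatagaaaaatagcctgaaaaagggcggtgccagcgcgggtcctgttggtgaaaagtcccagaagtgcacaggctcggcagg
Akr1cl, chr1:65032710-65033009, minus strand: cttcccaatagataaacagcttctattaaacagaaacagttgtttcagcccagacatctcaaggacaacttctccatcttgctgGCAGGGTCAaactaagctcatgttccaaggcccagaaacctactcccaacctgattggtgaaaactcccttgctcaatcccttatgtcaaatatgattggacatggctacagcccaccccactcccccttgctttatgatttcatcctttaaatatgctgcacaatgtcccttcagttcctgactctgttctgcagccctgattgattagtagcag

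Across all 40 mice no member's age slope passed the threshold. The slopes with the smallest p were those of Prdx3, the mitochondrial peroxiredoxin, Gstm1, a mu-class glutathione transferase, and Aldh3a2, a fatty aldehyde dehydrogenase, all negative. Among positive slopes the smallest p belonged to Gstm7, another mu-class transferase, and Gstp1, the pi-class transferase. In limma with sex as a term, adjusted over all 16896 spots, 0 of 54 members had an adjusted p under 0.05, beside 0.0178% of all spots. At an unadjusted p under 0.05, 4 members (7.41%) had a positive slope and 8 (14.8%) a negative one, beside 5.44% and 8.32% of all spots. The median slope was 0.00213 z per 100 days over the members and 0.00267 over all spots, and 53.7% of members and 57.9% of spots had a positive slope.

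After the median deviation of the spots sharing a block and column was subtracted on each array, called spot position correction here, 4 members had a positive and 4 a negative slope at an unadjusted p under 0.05, beside 5.31% and 6.14% of all spots. The negative ones were Prdx3, Gpx4, Cat and Hmox2, and the positive ones Gstp1, Gstm7, Txn1 and Cyp2s1. Prdx3, Gpx4, Gstp1 and Gstm7 stood on the same side before and after the correction at that p. The median member slope was then -0.00142, beside 0.000395 over all spots. Among markers of other cells 1 passed the threshold with age as deposited: Ighm, the heavy chain of immunoglobulin M. It rose with a slope of 0.203 (SE 0.0304, adjusted p = 0.000325 in limma). Cd74, the other measured lymphocyte marker, had a slope of 0.0302 (adjusted p = 0.202). The mean of these 2 ran from -0.06 to 0.36 in the youngest group and from 0.41 to 1.5 in the oldest. After correction Lcn2, 1 of 4 neutrophil markers, also passed, with a slope of 0.101 (limma adjusted p = 0.0354), from 0.0777 as deposited (adjusted p = 0.0551). The mean of the 4 ran from 0.27 to 0.34 in the youngest group and from 0.25 to 0.76 in the oldest (median slope 0.0162, corrected 0.00317). Of 3 club cell markers 2 had a positive slope at an unadjusted p under 0.05 (median 0.0259, corrected 0.00458). The lists below had negative median slopes, with no marker past the threshold. The 3 erythroid markers had adjusted p from 0.0537 to 0.225, and their mean ran from 0.97 to 2.28 in the youngest group and from 0.7 to 1.48 in the oldest. Of 5 fibroblast and smooth muscle markers 3 had a negative slope at an unadjusted p under 0.05 (median of the 5 -0.0306, corrected -0.011), with a mean from 0.47 to 0.88 and from 0.16 to 0.61. Of 4 alveolar type II markers 2 did so (median -0.0218, corrected -0.0279), with a mean from -0.18 to 0.23 and from -0.41 to 0.16. The part of any of these in the member slopes was not tested.

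**Figure D1:**
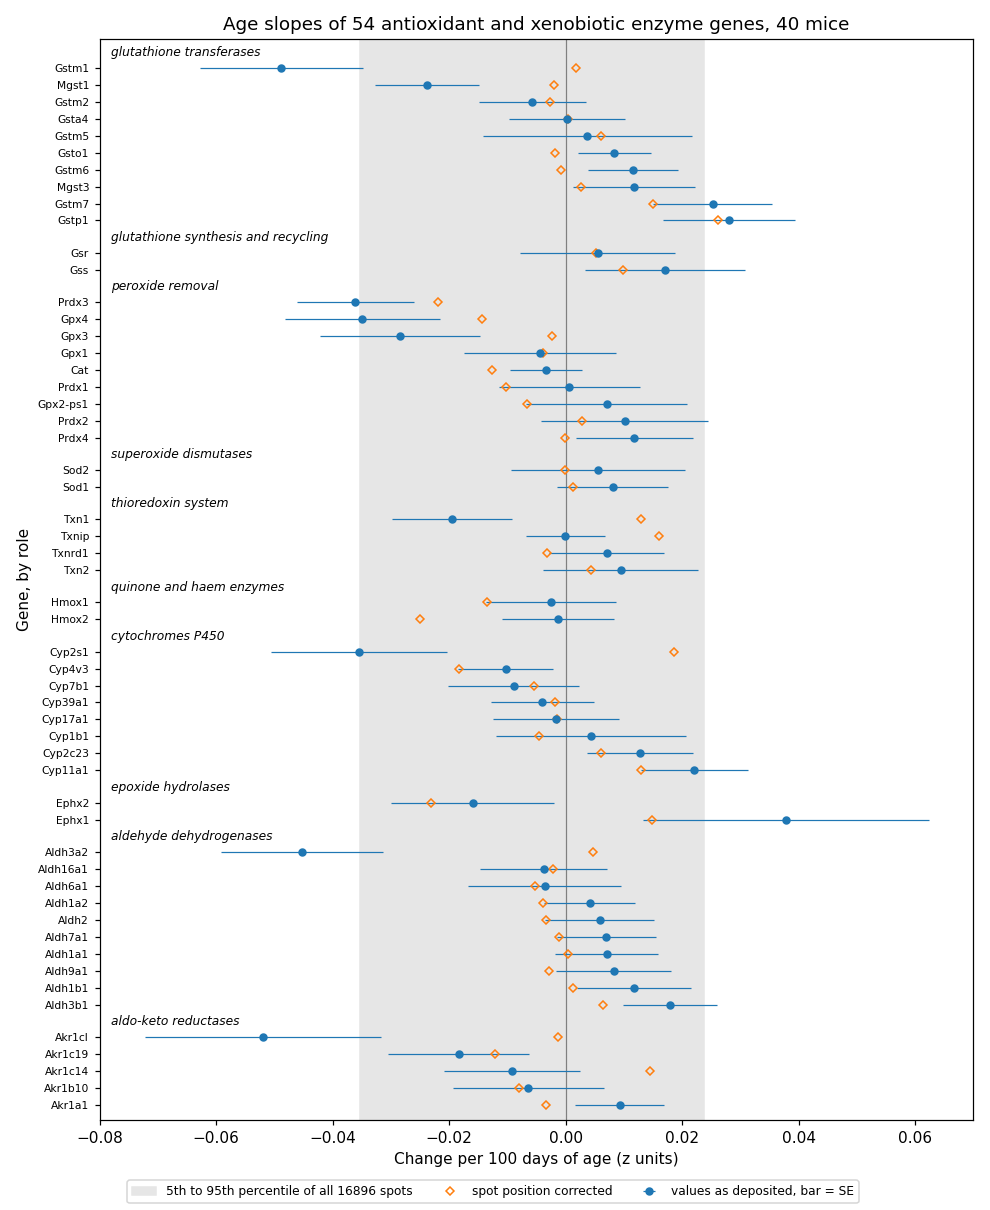
Age slopes of the 54 members in z units per 100 days, grouped by role. Filled points are values as deposited with their SE, open diamonds the same slopes after spot position correction, and the grey band the 5th to 95th percentile of all spots, -0.0353 to 0.0237. Gstm1, Aldh3a2, Akr1cl and Cyp2s1 moved furthest with the correction, and Prdx3 kept a slope of -0.0219.

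The slope was also fitted on log2 of age, which gives most weight to the step out of the youngest group. Without the dimmest 33.3% of spots the linear slope called 3 of the 39 members left (7.69%), Prdx3, Gstm1 and Aldh3a2, beside 4.07% of spots. On the log2 scale 8 members passed the threshold (14.8%), beside 7.03% of all spots. Gstm7 rose by 0.0454 z per doubling of age (SE 0.0142, limma adjusted p = 0.0403). Prdx3, Gpx4, Gstm1, Mgst1, Aldh3a2, Akr1cl and Cyp2s1 fell. Cyp2s1 stands outside the rule for named genes and was named after its value was seen. With spot position correction as well, an alternative chosen after seeing the data, 1 of 54 members (1.85%) passed, beside 3.63% of all spots: Prdx3 fell by 0.0346 z per doubling (SE 0.00736, limma adjusted p = 0.00557), where it fell by 0.0575 (SE 0.0142, adjusted p = 0.00856) without it. Gstm7 then had a slope of 0.0273 (SE 0.00908, adjusted p = 0.0892).

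Prdx3 encodes the peroxiredoxin that removes hydrogen peroxide inside mitochondria with electrons from thioredoxin 2. Its gene (number 11757) lies on chromosome 19 from 60864066 to 60874538. At 17 to 44 days its level ran from -0.22 to 0.33 with a median of 0.08. At 169 to 194 days it ran from -0.3 to 0.3 (median -0.12), at 476 to 499 days from -0.34 to 0.28 (median -0.12), and at 704 to 743 days from -0.55 to -0.03 (median -0.16). Of the oldest mice 10 of 10 were below the youngest group's median and 4 below its lowest mouse, so the groups overlapped. The slope was -0.0361 z per 100 days (SE 0.0101, limma adjusted p = 0.0568). It was -0.0219 after spot position correction (SE 0.00531, adjusted p = 0.068), -0.0301 with the title number division as a block, -0.0338 within the 27 earlier mice and -0.0228 within the 13 later ones. Leaving out 1 mouse at a time gave slopes from -0.0389 to -0.032 and adjusted p from 0.0246 to 0.144.

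Among the other peroxide-removing enzymes, Gpx4, which reduces lipid peroxides within membranes, had the slope with the next smallest p. Its level ran from 0.43 to 1.23 at 17 to 44 days (median 0.91), from 0.37 to 0.96 at 169 to 194 days (0.735), from 0.24 to 1.16 at 476 to 499 days (0.66) and from 0.27 to 0.9 at 704 to 743 days (0.58). The age groups overlapped, although 10 of 10 oldest mice were below the median of the youngest. Its slope was -0.0349 z per 100 days (SE 0.0133, adjusted p = 0.178) and -0.0143 after spot position correction (SE 0.00664, adjusted p = 0.39). Gpx3, the secreted plasma form, ran from 0.92 to 1.52 (median 1.15) in the youngest group and from 0.58 to 1.23 (median 0.985) in the oldest. Its slope of -0.0285 (SE 0.0137, adjusted p = 0.341) came to -0.00235 after correction. Cat, catalase, kept medians between -0.435 and -0.385 in the 4 age groups, and its slope of -0.00338 (SE 0.00612) came to -0.0126 after correction (SE 0.00606, adjusted p = 0.419). Gpx1, the abundant cytosolic peroxidase, Prdx1 and Prdx2, the cytosolic peroxiredoxins, and Prdx4, that of the endoplasmic reticulum, had slopes from -0.00438 to 0.0118 with adjusted p of 0.688 or more. Gpx2-ps1, listed as a pseudogene, had a slope of 0.00701 (SE 0.0138).

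Of the 10 glutathione transferases 0 passed the threshold, beside 0.0178% of all spots. At an unadjusted p under 0.05, 2 had a positive and 2 a negative slope, beside 5.44% and 8.32% of all spots. A positive slope of any size was found in 7 (70.0%), beside 57.9% of all spots. The median slope of the 10 was 0.00602, and 0.0011 after correction. Gstp1 (gene number 14870, chromosome 19 from 4035411 to 4037912), which conjugates electrophiles and binds stress kinases, had its lowest mean in the youngest mice, -0.17 ± 0.186 (SD, n = 10), and its highest in the oldest, 0.041 ± 0.228. Its level ran from -0.57 to 0.02 at 17 to 44 days (median -0.125), from -0.31 to 0.21 at 169 to 194 days (-0.145), from -0.42 to 0.26 at 476 to 499 days (-0.06) and from -0.22 to 0.6 at 704 to 743 days (0.005). In the oldest group 9 of 10 mice lay above the youngest group's median and 5 above its highest mouse. The highest of the oldest mice, a female of 712 days, read 0.6, with the next at 0.17. The slope of 0.028 z per 100 days (SE 0.0113, limma adjusted p = 0.218) was 0.0261 after spot position correction (SE 0.00878, adjusted p = 0.163), 0.0304 within the earlier mice and 0.0291 within the later ones. Leaving out 1 mouse at a time gave slopes from 0.0199 to 0.0317 and limma adjusted p from 0.165 to 0.411. The spot of Gstp1 lies in column 2 of table A, where 1 of 384 spots was called among the youngest mice. The other 23 spots of its block and column had a median slope of 0.000421.

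Gstm7 ran from -0.38 to 0.23 in the youngest group (median -0.065), from -0.15 to 0.26 at 169 to 194 days (0.09), from -0.03 to 0.35 at 476 to 499 days (0.09) and from -0.16 to 0.5 in the oldest (0.085). The 3 adult groups had like medians, all above the youngest. Its slope was 0.0252 (SE 0.0102, adjusted p = 0.217) and 0.015 after correction (SE 0.00652, adjusted p = 0.343). Over the adult mice alone it was 0.00558 (SE 0.0137).

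The mu-class gene Gstm1 (gene number 14862, chromosome 3 from 108012250 to 108017973) was represented by 3 spots that went in different directions. Its brightest spot ran from 1.23 to 2.08 in the youngest group (median 1.71), from 1.08 to 1.72 at 169 to 194 days (1.425), from 1.12 to 1.88 at 476 to 499 days (1.39) and from 1.06 to 1.49 in the oldest (1.245), with 10 of the 10 oldest below the youngest median. The slope of that spot was -0.0488 z per 100 days (SE 0.014, adjusted p = 0.0622). The other spots had slopes of -0.0331 (SE 0.0127) and 0.0257 (SE 0.011). All 3 lie in column 12 of table B, the first and second in block 7. After spot position correction the slopes were 0.00179 (SE 0.00591), 0.0175 (SE 0.00635) and 0.0147 (SE 0.00681), so the sign of the brightest spot depended on the correction. The other 23 spots in the block and column of the brightest had a median slope of -0.0491. The Gstm genes are close paralogs, and a cDNA spot may bind more than 1 of their transcripts.

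Mgst1, a membrane-bound transferase of the endoplasmic reticulum and mitochondria, ran from 0.59 to 1.12 in the youngest group (median 0.91) and from 0.4 to 0.86 in the oldest (0.725). Its slope of -0.0238 (SE 0.00894, adjusted p = 0.168) was -0.00202 after correction (SE 0.00422), and the 23 neighbours in its block and column had a median slope of -0.0213. Mgst3, its membrane-bound relative, and Gsta4, which acts on lipid peroxidation products, had slopes of 0.0117 (SE 0.0105) and 0.000189 (SE 0.00991). The remaining Gstm2, Gstm5, Gstm6 and Gsto1 had slopes from -0.00576 to 0.0115, with adjusted p of 0.574 or more.

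Genes that supply glutathione and thioredoxin electrons showed no slope past the threshold. Gss, which joins the last amino acid of glutathione, had medians of 1.095, 1.24, 1.245 and 1.345 in the 4 age groups in order of age, with overlapping ranges, and a slope of 0.017 (SE 0.0137, adjusted p = 0.664). Gsr, glutathione reductase, had medians of -0.64, -0.77, -0.655 and -0.72 and a slope of 0.00552 (SE 0.0133). Txn1, cytosolic thioredoxin, had a slope of -0.0196 (SE 0.0103, adjusted p = 0.409) that turned to 0.0129 after correction (SE 0.00585, adjusted p = 0.37). Txn2, the mitochondrial thioredoxin, Txnrd1, the reductase that recharges cytosolic thioredoxin, and Txnip, a thioredoxin-binding inhibitor, had slopes of 0.00944, 0.00703 and -7.46e-05. Sod1, the copper-zinc dismutase, had a slope of 0.00806 (SE 0.00949). Sod2, the mitochondrial manganese dismutase, had a slope of 0.00553 (SE 0.0149), but its dimmer spot had -0.00971 (SE 0.0074).

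Hmox1 and Hmox2, the inducible and the constitutive haem oxygenase, had slopes of -0.00256 (SE 0.0112) and -0.00135 (SE 0.00959), and after correction -0.0136 (SE 0.00883) and -0.025 (SE 0.0094, adjusted p = 0.231). The dimmer Hmox2 spot had 0.000446 as deposited and -0.00617 corrected. Among the 8 cytochromes P450, Cyp11a1, the side-chain cleavage enzyme of steroid synthesis, ran from 0.56 to 0.87 in the youngest group (median 0.725), from 0.53 to 1.13 at 169 to 194 days (0.79), from 0.49 to 1.04 at 476 to 499 days (0.73) and from 0.62 to 1.12 in the oldest (0.915). In the oldest group 7 of 10 mice lay above the highest of the youngest, and the slope was 0.0221 (SE 0.00922, adjusted p = 0.236) and 0.013 after correction (SE 0.00674). Cyp2s1, a P450 of surface epithelia, had a slope of -0.0355 (SE 0.0151, adjusted p = 0.249) that turned to 0.0186 after correction (SE 0.00842, adjusted p = 0.372). The 23 neighbours in its block and column had a median slope of -0.0575. Cyp1b1, an aryl hydrocarbon receptor target, had a slope of 0.0043 (SE 0.0163), and Cyp17a1, Cyp2c23, Cyp39a1, Cyp4v3 and Cyp7b1 had slopes from -0.0103 to 0.0127.

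Ephx1, the microsomal epoxide hydrolase, had the highest member slope as deposited, 0.0378, with the widest error (SE 0.0246, adjusted p = 0.56). That slope was 0.0148 after spot position correction (SE 0.0159) and 0.0135 with the title number as a block. It was 0.0172 within the earlier mice and 0.00574 within the later ones. Ephx1 medians were -1.125, -1.035, -0.95 and -0.94 in order of age. The ranges overlapped, from -1.41 to -0.35 in the youngest group and from -1.4 to -0.08 in the oldest. Within the youngest group the 2 later mice read -0.38 and -0.35, and the 8 earlier ones ran from -1.41 to -1.07. Ephx2, the soluble hydrolase of fatty acid epoxides, had a slope of -0.016 (SE 0.014) at its brighter spot and 0.00271 (SE 0.00685) at the other. Of the 10 aldehyde dehydrogenases, Aldh3a2 ran from 1.19 to 2.1 in the youngest group (median 1.74), from 1.13 to 1.91 at 169 to 194 days (1.475), from 1.3 to 1.97 at 476 to 499 days (1.53) and from 1.1 to 1.56 in the oldest (1.32). Its oldest mice were all below the median of the youngest. Its slope of -0.0453 (SE 0.0139, adjusted p = 0.0777) turned to 0.00463 after correction (SE 0.00465), and its block and column neighbours had a median slope of -0.0487. Aldh3b1 had a slope of 0.0179 (SE 0.00814, adjusted p = 0.298), with medians of -0.66, -0.64, -0.535 and -0.54. Aldh1a1 and Aldh1a2, which make retinoic acid, and Aldh2, the mitochondrial enzyme that clears acetaldehyde, had slopes of 0.007, 0.00411 and 0.00586, while Aldh16a1, Aldh1b1, Aldh6a1, Aldh7a1 and Aldh9a1 lay between -0.00378 and 0.0117. Among the 5 aldo-keto reductases Akr1cl ran from 0.18 to 1.56 in the youngest group (median 1.22) and from 0.21 to 0.9 in the oldest (0.515). Its slope of -0.052 (SE 0.0203, adjusted p = 0.195) was -0.00133 after correction (SE 0.00717). Akr1a1, Akr1b10, Akr1c14 and Akr1c19 had slopes from -0.0184 to 0.00923. No sulfotransferase was among the members.

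**Figure D2:**
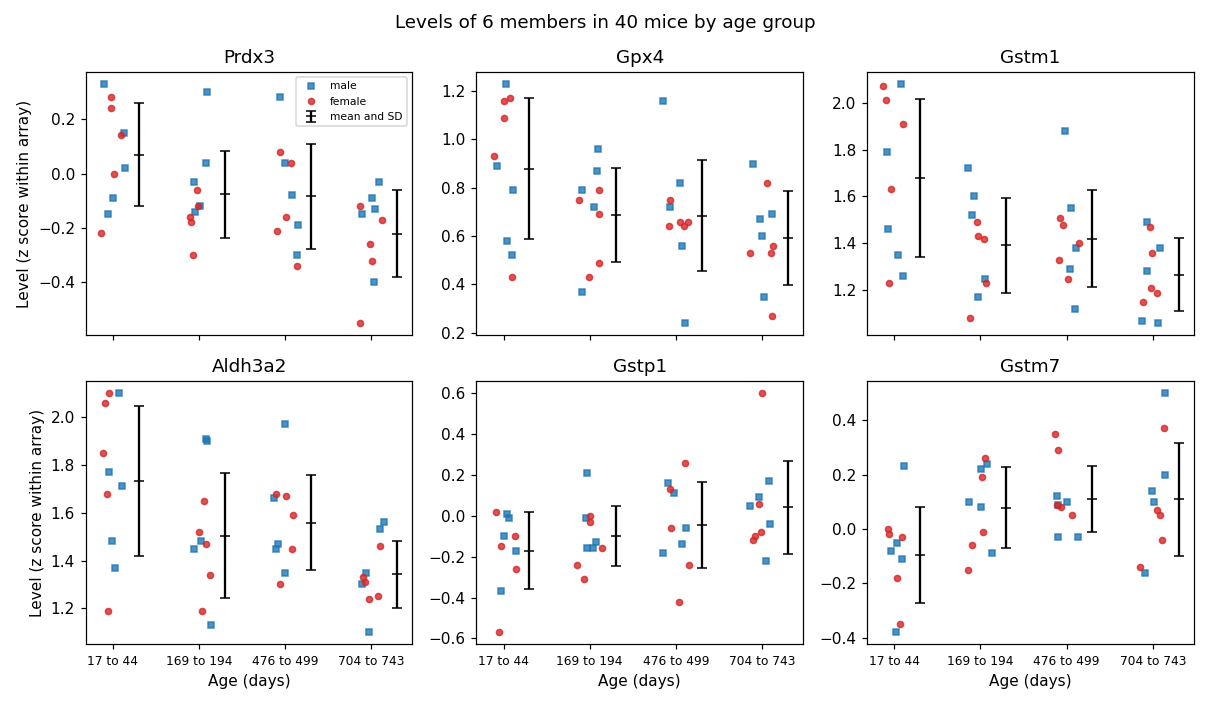
Levels of 6 members in each of the 40 mice by age group, as z scores within an array; squares are males, circles females, and bars the mean and SD of 10 mice. Prdx3, Gpx4, Gstm1 and Aldh3a2 have medians of 0.08, 0.91, 1.71 and 1.74 in the youngest group and -0.16, 0.58, 1.245 and 1.32 in the oldest, Gstp1 and Gstm7 go from -0.125 and -0.065 to 0.005 and 0.085, and all ranges overlap.

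With the youngest group left out, the slope over the 30 adult mice gave limma 0 members past the threshold and 0 at an unadjusted p under 0.05, beside 0% and 2.59% of all spots. Prdx3 had -0.026 z per 100 days (SE 0.0136), and -0.0161 after spot position correction (SE 0.00676, unadjusted p = 0.0239). Gstp1 had 0.0249 (SE 0.0165), and Gsr 0.0336 (SE 0.0192). Between the youngest group and that of 169 to 194 days limma called 0 members and 0% of spots. At an unadjusted p under 0.05, Gstm7 was higher in the older mice by 0.175 z (SE 0.0764), 1 member beside 1.34% of all spots. Gstm1, Gpx3, Akr1cl and Aldh3a2 were lower, 4 members beside 4.6% of spots, with differences of -0.288, -0.225, -0.327 and -0.227. After correction these 4 were -0.000175, -0.0649, -0.0392 and 0.0143, while Gstm7 was 0.093 (SE 0.0487). Within the later mice the 4 differences were positive, from 0.235 to 0.407, and within the earlier ones negative, from -0.49 to -0.391. The later set held only 2 mice of the youngest group, both of 33 to 44 days, and 3 of 169 to 194 days. All 5 mice of 17 to 21 days were earlier, so the sets also differ in age within the youngest group. Between the group of 169 to 194 days and the oldest limma called 0 members, beside 0.00592% of spots. There 0 had an unadjusted p under 0.05, beside 2.5%. In that step Prdx3 differed by -0.145 (SE 0.0783), or -0.088 corrected (SE 0.0382), and Gstp1 by 0.14 (SE 0.0902).

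Males and females did not differ past the threshold in any member, with 0 members and 0% of spots called by limma. At an unadjusted p under 0.05 there were 2 members, beside 1.45% of all spots. Aldh1a1, the retinal dehydrogenase of airway cells, ran from 0.23 to 0.66 in the 20 males (median 0.38) and from -0.1 to 0.58 in the 20 females (median 0.325). Males were higher by 0.107 z (SE 0.0487), and by 0.0548 after correction (SE 0.0285). Gstm6 ran from 0.24 to 0.68 in males (median 0.45) and from 0.27 to 0.81 in females (median 0.57), a difference of -0.0975 (SE 0.0412), and -0.0666 after correction (SE 0.0407). Both pairs of ranges overlapped. The test of whether age slopes differ by sex called 0 members and 0% of spots. Cyp17a1, which makes androgen precursors, was the only member with an unadjusted p under 0.05, beside 2.01% of spots, with a male slope less female slope of -0.05 z per 100 days (SE 0.0205) and -0.0257 after correction (SE 0.0149).

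The youngest group spans weaning, when milk gives way to chow, and its 5 mice of 17 to 21 days were set against its 5 of 33 to 44 days. As deposited, 7 members were lower in the older of these mice and none was higher: Gstm1 and Mgst1 among the transferases, Gpx3, Gpx4 and Prdx3 among the peroxide enzymes, Aldh3a2 and Akr1cl. They fell by 0.303 to 0.744 z. After spot position correction none of the 7 passed, and Gstm1 had no difference of either sign beyond its error. The 7 were 13% of the members, beside 7.48% of all spots. At an unadjusted p under 0.05, 13 members (24.1%) were lower and 1 (1.85%) higher, beside 10.2% and 9.24% of spots. After correction these were 7 (13%) and 1 (1.85%), beside 7.82% and 8.45%. Limma then called 0% of all 16896 spots, so the members' calls were lost together with every other call.

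In the 5 mice of 17 to 21 days Prdx3 read 0.15 and 0.33 in males of 17 and 19 days, and 0.24, 0.14 and 0.28 in females of 17, 19 and 21 days. In those of 33 to 44 days it read -0.15, -0.09 and 0.02 in males of 40, 43 and 44 days, and -0.22 and 0 in females of 33 and 40 days. Every younger mouse was above every older one, as deposited and after correction. Prdx3 fell by 0.322 (SE 0.0783, limma adjusted p = 0.0286), and the corrected difference was -0.161 (SE 0.0471, adjusted p = 0.12). The 23 other spots of its block and column had a median difference of -0.12.

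Gpx4, in the same order of mice, read 0.89, 1.23, 1.16, 1.09 and 1.17 at 17 to 21 days and 0.52, 0.58, 0.79, 0.43 and 0.93 at 33 to 44 days. The female of 40 days lay above the male of 17 days, so the mice overlapped. Gpx4 fell by 0.445 (SE 0.108, adjusted p = 0.028), and the corrected difference was -0.166 (SE 0.0557, adjusted p = 0.167). Gpx3 read 1.19, 1.52, 1.34, 1.32 and 1.34 against 1.11, 0.93, 1.09, 0.92 and 1.02, with no overlap. It fell by 0.337 (SE 0.0814, adjusted p = 0.028), and the corrected difference was -0.0918 (SE 0.0496, adjusted p = 0.408), when the mice overlapped.

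Gstm1 read 1.79, 2.08, 2.07, 1.91 and 2.01 against 1.26, 1.35, 1.46, 1.23 and 1.63. It fell by 0.572 (SE 0.0956, adjusted p = 0.0132), while the corrected difference was 0.00396 (SE 0.0495), and its block and column neighbours had a median of -0.603. Its other spots differed by -0.421 (SE 0.102) and 0.267 (SE 0.106), and by 0.156 and 0.122 after correction. Mgst1 read 0.99, 1.12, 1.01, 1.03 and 1.07 against 0.73, 0.78, 0.82, 0.59 and 0.83. It fell by 0.303 (SE 0.0735, adjusted p = 0.0286), and the corrected difference was -0.0319 (SE 0.0459). These transferases therefore showed no overlap as deposited and overlapped after correction.

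Aldh3a2 read 1.77, 2.1, 2.1, 1.85 and 2.06 against 1.48, 1.37, 1.71, 1.19 and 1.68, and fell by 0.492 (SE 0.116, adjusted p = 0.0265), with a corrected difference of -0.0429 (SE 0.0545). Akr1cl read 1.27, 1.56, 1.47, 1.24 and 1.56 against 0.61, 0.18, 0.8, 0.44 and 1.2, and fell by 0.744 (SE 0.159, adjusted p = 0.0187), with a corrected difference of -0.168 (SE 0.0923). In both the younger mice were all higher as deposited and overlapped with the older ones after correction. Mgst1 and Aldh3a2 lie in column 9 of table B, where 251 of 254 called spots were falls. Gstm1 and Akr1cl lie in column 12 (63 of 72), Gpx3 in column 10 (98 of 103), Gpx4 in column 7 (91 of 101) and Prdx3 in column 13 (34 of 46).

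**Figure D3:**
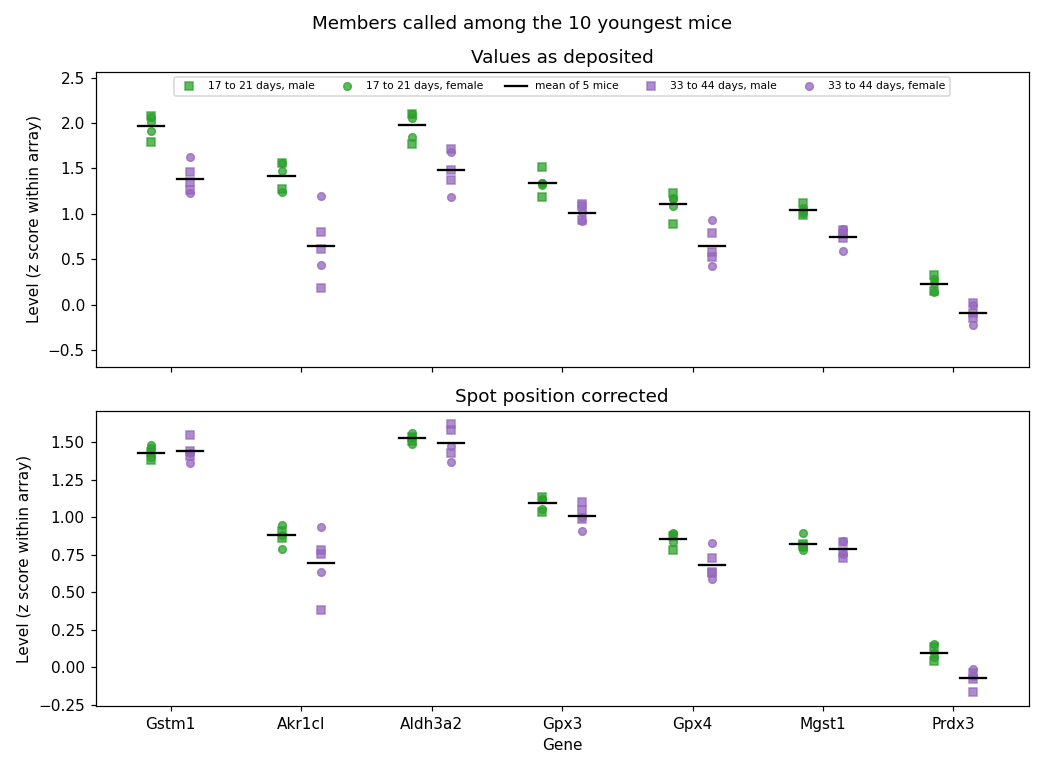
Levels of the 7 members called among the 10 youngest mice, as z scores within an array, as deposited (upper panel) and after spot position correction (lower panel); green are mice of 17 to 21 days and purple of 33 to 44 days, squares males, circles females, and lines the mean of 5 mice. The mean of Prdx3 goes from 0.228 to -0.088 as deposited and from 0.097 to -0.072 corrected, and that of Gstm1 from 1.972 to 1.386 as deposited and from 1.43 to 1.437 corrected.

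Other members stood out only after the correction, or changed little with it. Gsr read -0.44, -0.4, -0.63, -0.42 and -0.49 at 17 to 21 days and -0.83, -0.65, -0.66, -0.74 and -0.7 at 33 to 44 days, without overlap. Its difference was -0.25 as deposited (SE 0.0905, limma adjusted p = 0.119) and -0.259 corrected (SE 0.0616, adjusted p = 0.0693), and 0 of the 384 spots in its column of table A were called. Gpx1 differed by -0.252 (SE 0.0956, adjusted p = 0.139) and, corrected, by -0.243 (SE 0.07, adjusted p = 0.109), with overlapping mice. Aldh1b1 differed by -0.183 and, corrected, by -0.267 (SE 0.0752, adjusted p = 0.109). Like Cyp2s1, Aldh1b1 stands outside the rule for named genes and was picked here after its value was seen. Mgst3 read -0.83, -0.83, -1.06, -0.78 and -0.87 against -0.61, -0.44, -0.65, -0.64 and -0.77, without overlap. It was higher by 0.231 (SE 0.0806, adjusted p = 0.114) and, corrected, by 0.153 (SE 0.0581, adjusted p = 0.222). In all, 7 members were lower and 1 higher with no overlap as deposited, beside 5.85% and 2.83% of all spots, and after correction 3 and 1, beside 3.27% and 3.11%.

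**Figure D4:**
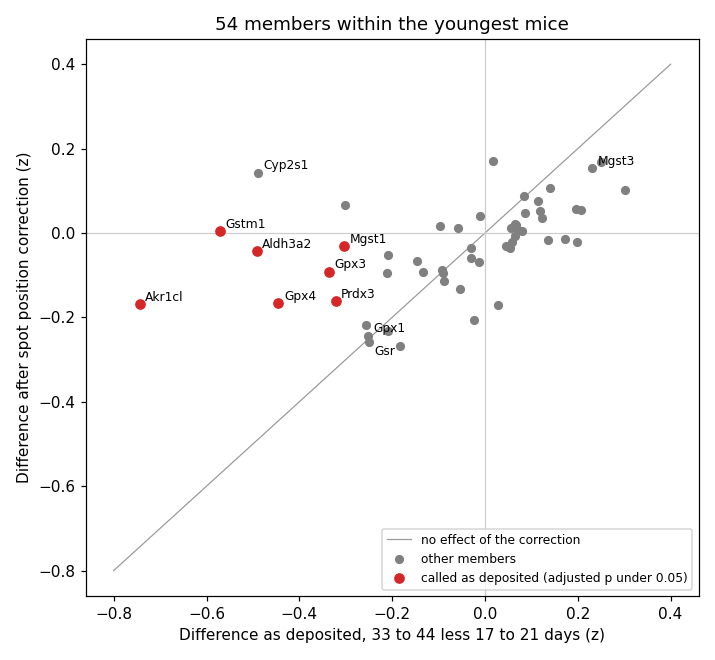
Difference of mice of 33 to 44 days less those of 17 to 21 days for each of the 54 members, in z units, as deposited (horizontal) and after spot position correction (vertical); red points are the 7 called as deposited and the line marks equal values. Gsr and Gpx1 lie near the line at -0.25 and -0.252, while Gstm1 goes from -0.572 to 0.00396 and Cyp2s1 from -0.49 to 0.143.

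The calls within the youngest mice, over all spots as over the members, also changed when single mice were left out. They were lost when the title numbers entered the fit, and the reason was not tested. Both young mice with title numbers of 46 or above were in the older part. With that division as a block limma called 0 of 54 members and 0% of all spots, and within the 8 earlier mice it also called 0 of both. At an unadjusted p under 0.05 the block left 4 members higher (7.41%) and 11 lower (20.4%), beside 8.42% and 9.84% of spots. Within the earlier mice there were 4 (7.41%) and 10 (18.5%), beside 7.52% and 9.29%. Leaving out 1 mouse at a time left 0 to 1944 of all spots called and 0 to 9 members: 0 without the male of 19 days or the female of 33 days, 1 without the female of 17 days or the female of 21 days, 5 without the male of 40 days and 9 without the female of 40 days. All 3 measured erythroid markers, Hba-a1, Hba-a2 and Alas2, fell between the same mice. Their mean ran from 1.76 to 2.28 at 17 to 21 days and from 0.97 to 1.51 at 33 to 44 days, and their median difference was -0.659 as deposited and -0.54 corrected. Of the 5 measured fibroblast and smooth muscle markers 4 fell, and the mean of the 5 ran from 0.73 to 0.88 in the younger mice and from 0.47 to 0.62 in the older. Their median difference was -0.328 as deposited and 0.0067 corrected. The 3 measured club cell markers, which include the member Aldh1a1, went the other way, with 0 past the threshold. Their mean ran from 0.19 to 0.49 in the younger mice and from 0.5 to 0.87 in the older. The median difference of the club cell markers was 0.207 as deposited and 0.1 corrected. The part of these cells in the member changes was not tested.

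Over all 40 mice, after age group and sex were taken out, the members whose levels were most like that of Prdx3 were Mgst1 (r = 0.94), Gpx4 (0.85) and Akr1cl (0.79), all on table B. After spot position correction they were Aldh1b1 (0.72), Hmox2 (0.7) and Akr1cl (0.68), and Mgst1 came to 0.26. The mice share the same arrays in each of these pairs.

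Genes around these enzymes gave 0 calls with age. Of 81 listed regulators, NADPH enzymes, other redox genes, haem and iron genes and other xenobiotic genes, 41 had a spot, and limma called 0 over the 40 mice, with 3 higher and 3 lower at an unadjusted p under 0.05, where 5.44% and 8.32% of all spots lay. Their median slope was 0.00133, beside 0.00267 over all spots. Nfe2l2, which encodes NRF2, had a slope of 0.00133 (SE 0.011), and Nfe2l1, its relative, 0.028 (SE 0.0135, adjusted p = 0.341). Ces1d, a carboxylesterase that marks club cells, had the smallest p among the positive slopes, 0.0367 (SE 0.0106, adjusted p = 0.0636) and 0.0207 after correction. Fech, the last enzyme of haem synthesis, had -0.0375 (SE 0.0104, adjusted p = 0.0544), and -0.000682 after correction. Among the youngest mice 9 of the 41 were higher and 3 lower in the older mice at an unadjusted p under 0.05, where 9.24% and 10.2% of all spots lay, and their median difference was 0.0967 as deposited and 0.0239 corrected. Past the threshold, where 7.48% of all spots lay, 0 rose and 2 fell: Fech by 0.419 (SE 0.0919, adjusted p = 0.0203) and Cul3, the ubiquitin ligase scaffold that works with KEAP1, by 0.56 (SE 0.152, adjusted p = 0.0441). After correction Fech differed by -0.0315 and Cul3 by -0.196 (adjusted p = 0.34).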

How the data were processed

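Lung RNA of 40 mice was measured on 80 cDNA arrays labelled with 33P, per the labels' protocols. The values as deposited are z scores within an array, with a mean of 0 and an SD of 1. How signals were scaled, corrected for background or filtered before that is not given in the sources used here. Age in days and sex came from the labels. The age groups and the parts of the youngest group were set here from age in days.

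Slopes and contrasts were fitted with limma 3.58.1 (R 4.3.3), using lmFit with eBayes and two-sided tests, in each table separately, with Benjamini-Hochberg adjustment over 16896 spots and a threshold of 0.05. Slopes and the comparison within the youngest mice had sex as a term; other contrasts came from 8 group means. Spots were laid out by number as 16 blocks of 24 lines and 22 columns, as the data showed: at a distance of 22 spots the mean residual correlation was 0.5 (table A) and 0.546 (table B). Correction took from each value the median by which the 24 spots of its block and column deviated on that array. Fits were tested on simulated data in which spots were drawn independently. Residuals of the real spots were related by column, so that test cannot show how calls behave under this relation. Alternatives were the exclusion of the dimmest 33.3% of spots, quantile normalization, trend and robust eBayes settings, title number as a block or as separate sets, the mean of a gene's spots, log2 of age, the male of 714 days left out and each mouse left out.

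The members, gene lists and tests were chosen with earlier results of these data known. Named members were those past the threshold, those with the smallest unadjusted p under 0.05 (up to 6 per direction, or 3 for sex and for slope by sex), and 31 measured genes of a list of 54 named whatever their p. All 54 members matched the RefSeq gene table of GRCm38.p6, whose positions are given. Depth has no meaning for array intensities, and the number of arrays limits the precision. Python 3.11.15 with matplotlib 3.10.9 drew the figures.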

Additional observations from a re-analysis of the deposited data

Results flagged for a closer look

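In 5 of the 76 groups of levels examined, 1 mouse lay far from the others by Dixon's criterion. Chance flags about 1 in 20 groups. Only members named by their p in a comparison were examined. The listed genes named whatever their p, such as Gsta4 and Gsr, were left out unless also named by p. A female of 704 days was highest of its group for Cyp17a1, at -0.03 with the next mouse at -0.52, and for Mgst3, at -0.17 with the next at -0.58. A female of 712 days was highest for Gstp1, at 0.6 with the next at 0.17. A female of 33 days was highest for Gstm6, at 0.81 with the next at 0.51. A female of 499 days was lowest for Mgst3, at -1.07 with the next at -0.73.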

How the results depend on the processing

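For the slope over all mice, limma called 0 members as deposited, 3 of the 39 left without the dimmest spots (Prdx3, Gstm1 and Aldh3a2, beside 4.07% of those spots), 8 on log2 of age and 1 on log2 of age with spot position corrected (chosen after seeing the data). Leaving out 1 mouse gave 3 to 631 calls over all spots and 0 to 3 members, above 0 for 10 of the 40: 3 without the male of 43, female of 33, female of 193, male of 194 or male of 476 days, 2 without the male of 40, female of 180, male of 730 or male of 743 days, and 1 without the male of 186 days. Over all spots the calls went from 3 to 1188 on log2 of age. Members at an unadjusted p under 0.05 went from 4 higher and 8 lower to 1 and 0 within the later mice. Within the youngest mice the 7 called members became 0 with spot position corrected, 0 with the title number as a block and 0 within the earlier mice, and 0 to 9 without 1 mouse, while calls over all spots went from 1264 to 0 in each of those 3 fits and to between 0 and 1944 without 1 mouse. Gstm1 turned to 0.00396 with spot position corrected. The later mice alone could not be fitted there. The other 5 comparisons had 0 member calls in every alternative run. The causes were not tested. The labels state no pairing of mice between groups. In order of title number, however, the mice run in rounds that each hold 1 mouse of every age group and sex. A block by these rounds was not tested. The division into earlier and later mice cut through a round and was not balanced for age. Later mice were 2, 3, 4 and 4 of the 10 in each age group, from youngest to oldest.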
